A study of Mus musculus with 24 samples.

Results

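The mast cell genes described here are Kit, Fcer1a, Ms4a2, Tpsab1, Tpsb2, Cma1, Mcpt4, Cpa3 and Hdc. They are the 9 of 51912 genes in the deposited count table whose Ensembl identifiers map to these mouse symbols, and all 9 passed the filter on low counts. Counts came from polyA RNA sequencing of 24 whole-ear samples of C57BL/6 mice. Ears labelled CARD14E138A (E138A below), 6 samples taken at day 5 and 6 at 1 month, were set against wild-type (WT) ears, 6 samples at each time, to ask for the early and the lasting effects of the mutant protein. The knock-in allele holds a stop cassette flanked by lox sites, which CreERT2 removes after tamoxifen, so that Card14 E138A, a form linked to psoriasis that drives NF-κB without a stimulus, is then made from its own locus. All 4 groups were given tamoxifen into the peritoneum on 3 consecutive days, and time was counted from the first injection. The labels name neither the promoter of the CreERT2 gene nor whether the WT mice carried it, and they give no age or sex. They do not say that the samples of a group came from separate animals, and a p-value here says only how a difference compares with the spread among the libraries, which may be technical.

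Mast cells settle in the dermis as precursors and mature there under the KIT ligand, stem cell factor. Their granules hold histamine, made by the enzyme that Hdc encodes, and proteases bound to serglycin, chiefly tryptases, chymases and carboxypeptidase A3 in the connective tissue type of mouse skin. The high-affinity IgE receptor on their surface is built from an alpha chain that binds IgE (Fcer1a), a beta chain that amplifies the signal (Ms4a2) and gamma chains (Fcer1g). Not every member is made by mast cells alone. Kit is also used by melanocytes, Fcer1a by basophils and some dendritic cells, and Hdc by basophils and by activated or immature neutrophils.

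Total counts per library were 16803680 to 18852963 in E138A and 15661515 to 16998900 in WT ears at day 5, and 20608274 to 23022149 in E138A and 19255028 to 23904976 in WT ears at 1 month. Markers of keratinocytes, fibroblasts, ear cartilage, skeletal muscle and fat were read in every library. Several of these moved with genotype. The summed fibroblast markers were 3720 to 5950 CPM in E138A and 9440 to 13000 CPM in WT ears at day 5, and 7000 to 20700 CPM in E138A and 5750 to 9740 CPM in WT ears at 1 month. The 4 fibroblast markers (Col1a1, Col1a2, Pdgfra and Dcn) did not move alike. At day 5, 2 were called lower and 1 higher, namely Pdgfra (146 to 256 CPM in E138A and 107 to 140 CPM in WT ears). At 1 month 3 were called higher and 1 lower, namely Dcn (585 to 1660 CPM in E138A and 1240 to 3280 CPM in WT ears). Skeletal muscle markers summed to 705 to 1330 CPM in E138A and 1760 to 2580 CPM in WT ears at day 5, and to 275 to 2000 CPM in E138A and 2480 to 8990 CPM in WT ears at 1 month. The part of this tissue makeup in the results was not tested. Card14, the altered gene, lay at 35.1 to 65.4 CPM (counts per 1e6, after scaling by TMM factors) in E138A and 34.6 to 54.2 CPM in WT ears at day 5. At 1 month its range was 9.93 to 25.3 CPM in E138A and 32.9 to 49.9 CPM in WT ears. These levels are no check of genotype, since the allele is expressed from the same locus. Libraries of 1 month differed in a way that the groups do not explain. For each library the GC content of the transcripts was correlated, over the tested genes, with the library's deviation from each gene's mean. This GC correlation ran from -0.305 to 0.019 at day 5, but was 0.437, 0.232, -0.293, -0.353, -0.326 and 0.537 in E138A libraries 1 to 6 and -0.345, 0.511, 0.12, 0.211, 0.289 and -0.127 in WT libraries 1 to 6 of 1 month. The 3 libraries above 0.4 (E138A 1 and 6, WT 2) were left out in an alternative fit. For the mast cell genes named at the start, its value stands beside each result whose call it ends or starts. It was not read for the marker and pathway genes.

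To show what lies upstream of the receptor, histamine and protease genes whose levels parted or moved together below, 5 promoter windows are printed. RefSeq (GRCm38.p6) promoters were found for 7 of the 9 members, all but Tpsab1 and Tpsb2. The RefSeq start of Hdc lies inside the longer gene span of GENCODE. Each window is the 250 bases before the start, 5′ to 3′ on the gene's strand, and capitals mark the letters AGATAA and AGATAG, and also TGATAA and TGATAG, or their reverse complements, the core that GATA factors such as GATA1 and GATA2 of mast cells recognise.
Fcer1a (chr1:173227230-173227479, minus strand): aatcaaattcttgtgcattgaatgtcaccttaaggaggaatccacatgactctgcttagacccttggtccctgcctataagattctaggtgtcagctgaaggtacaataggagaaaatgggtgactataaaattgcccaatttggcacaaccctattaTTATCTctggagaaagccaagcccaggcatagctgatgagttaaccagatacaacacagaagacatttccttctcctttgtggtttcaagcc
Ms4a2 (chr19:11623720-11623969, minus strand): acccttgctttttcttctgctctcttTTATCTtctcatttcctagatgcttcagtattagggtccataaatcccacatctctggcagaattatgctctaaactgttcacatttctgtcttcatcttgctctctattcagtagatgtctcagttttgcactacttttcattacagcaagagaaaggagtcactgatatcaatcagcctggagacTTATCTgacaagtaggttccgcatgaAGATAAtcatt
Hdc (chr2:126618679-126618928, minus strand): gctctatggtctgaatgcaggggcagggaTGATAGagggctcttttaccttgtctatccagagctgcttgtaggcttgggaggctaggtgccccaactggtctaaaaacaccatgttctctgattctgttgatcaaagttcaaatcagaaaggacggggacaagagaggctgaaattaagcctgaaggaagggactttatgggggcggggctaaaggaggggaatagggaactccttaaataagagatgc
Mcpt4 (chr14:56062311-56062560, minus strand): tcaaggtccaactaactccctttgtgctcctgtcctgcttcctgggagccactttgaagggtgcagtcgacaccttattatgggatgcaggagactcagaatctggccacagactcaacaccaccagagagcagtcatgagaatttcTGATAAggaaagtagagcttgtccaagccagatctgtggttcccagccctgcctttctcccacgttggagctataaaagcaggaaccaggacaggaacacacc
Cpa3 (chr3:20242182-20242431, minus strand): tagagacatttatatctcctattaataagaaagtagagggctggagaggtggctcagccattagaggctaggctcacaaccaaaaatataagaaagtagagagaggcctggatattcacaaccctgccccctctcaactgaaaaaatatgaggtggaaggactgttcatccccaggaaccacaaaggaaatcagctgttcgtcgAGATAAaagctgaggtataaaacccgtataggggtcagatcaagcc
Ms4a2 holds 3 such matches and the other windows printed hold 1 each. Of the 7 member promoters 6 hold at least 1, all but Kit, against 26.5% of the 32851 promoter windows of this length. The gene-strand letters TATAAA occur in 3 of the 7 (Fcer1a, Mcpt4 and Cpa3), against 7.6% of all windows. CACGTG or CACATG, the E-box letters that MITF binds, occur on either strand in 1 of the 7 (Fcer1a), against 17.6% of all windows. The 3 motifs were counted apart, so matches may overlap. A match is a description of these letters and not evidence of binding.

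Levels were set against each other per length, as mean CPM per kb of annotated exon. In WT ears at day 5 the granule proteases stood highest, with Mcpt4 at 57.3 ± 6.09, Cma1 at 28 ± 2.62, Cpa3 at 21.9 ± 2.69 and Tpsb2 at 14.6 ± 1.5 CPM per kb (SD, n = 6). Kit followed at 3.15 ± 0.403 and Ms4a2 at 2.08 ± 0.281 CPM per kb. Tpsab1, Hdc and Fcer1a came last at 0.806 ± 0.138, 0.776 ± 0.187 and 0.579 ± 0.162 CPM per kb. Neighbours in this order whose ranges overlapped were Cma1 and Cpa3, Kit and Ms4a2, Tpsab1 and Hdc, and Hdc and Fcer1a. At 1 month the E138A ears kept Mcpt4 (114 ± 68) and Cma1 (59.7 ± 38) on top, and Fcer1a at 5.47 ± 2.71 and Hdc at 5.33 ± 2.75 CPM per kb stood above Kit at 3.68 ± 0.342. The ranges of every pair of neighbours overlapped in that group. The exon length adds up all annotated isoforms and so understates genes with long alternative ends.

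**Figure D1:**
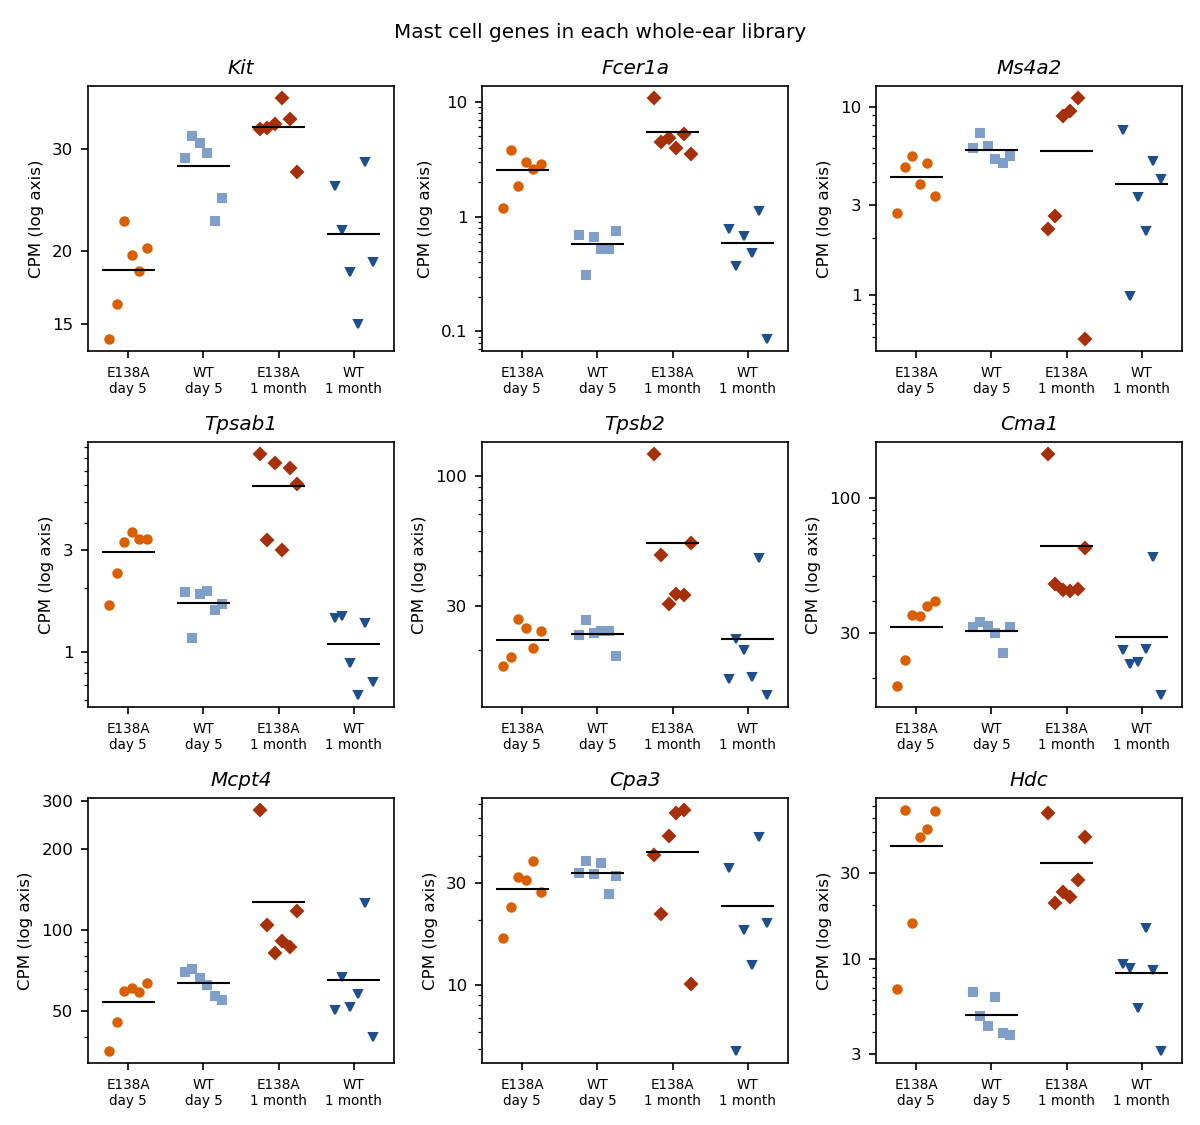
Level of each mast cell gene in every library, as CPM on a log axis (the axis range differs between panels). Points are libraries 1 to 6 of each group from left to right and bars are group means. Fcer1a and Hdc of E138A ears lie above every WT library at each time, and E138A library 1 of 1 month stands above the rest for Tpsb2, Cma1 and Mcpt4.

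At day 5 the mast cell genes did not move as a group. Hdc, Fcer1a and Tpsab1 were higher in E138A than in WT ears and Kit was lower, while the major proteases Tpsb2, Cma1, Mcpt4 and Cpa3 and the receptor chain Ms4a2 did not pass the test. These 3 of 9 called higher stand against 20.7% of the 17287 genes tested, and the 1 of 9 called lower against 20.2% (40.9% in either direction). The median log2 fold change of the 9 was -0.08, beside -0.02 for all genes tested. At 1 month 7 of the 9 were higher in E138A ears and 0 lower, against 25.5% and 21.5% of all genes tested (47.1% in either direction), and the 2 that were not called, Ms4a2 and Cpa3, had positive fold changes too. Their median was 1.17, beside 0.05 for all genes. In each genotype comparison, edgeR's quasi-likelihood test was adjusted by Benjamini-Hochberg over all tested genes, with a call at an adjusted p below 0.05.

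**Figure D2:**
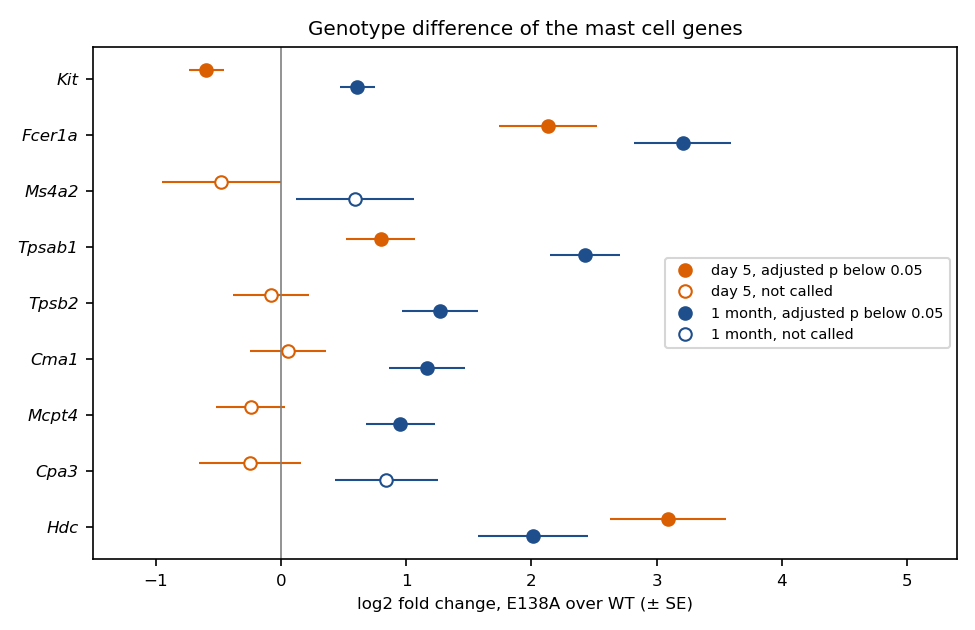
Log2 fold change of E138A over WT ears for each mast cell gene at day 5 and at 1 month, with its standard error. Filled points passed the edgeR test at an adjusted p below 0.05. The proteases Tpsb2, Cma1 and Mcpt4 lie near 0 at day 5 and between 0.95 and 1.27 at 1 month, and Kit lies at -0.60 and 0.61.

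Kit (ENSMUSG00000005672, GRCm38 chromosome 5, 75574916 to 75656722), the receptor for stem cell factor, was the 1 member called in opposite directions at the 2 times. At day 5 it ran from 14.1 to 22.6 CPM with a median of 19.1 in E138A ears, and from 22.6 to 31.6 CPM with a median of 29.3 in WT ears. The ranges met only at 22.6 CPM, and 5 of 6 E138A libraries lay below every WT library. Its log2 fold change was -0.60 ± 0.14 (SE, adjusted p = 0.00147). At 1 month Kit ran from 27.4 to 36.8 CPM (median 33) in E138A ears and from 15 to 28.5 CPM (median 20.5) in WT ears, and 5 of 6 E138A libraries lay above every WT library. The log2 fold change was 0.61 ± 0.14 (adjusted p = 0.00084), and voom with sample quality weights gave 0.96. The 2 fold changes differed by 1.21 ± 0.20 (interaction, adjusted p = 0.000266). In whole tissue, fewer cells of a type and less RNA per cell cannot be told apart.

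The summed melanocyte markers (Tyr, Tyrp1, Dct, Pmel, Mlana and Slc45a2) moved the same way as Kit. They were 14.9 to 22.4 CPM in E138A and 64.3 to 85.3 CPM in WT ears at day 5, with 6 of 6 markers called lower. At 1 month they were 47 to 78.5 CPM in E138A and 22.5 to 57 CPM in WT ears, with 3 of 6 called higher, and none of the 6 was at 0 in any group. Their part in the Kit result was not tested, nor that of the fibroblast markers given above, whose median sum was 4570 CPM in E138A and 11800 CPM in WT ears at day 5, and 9830 CPM in E138A and 6610 CPM in WT ears at 1 month. Single fibroblast markers did not move alike, as given above. Kitl, the gene of the KIT ligand, had log2 fold changes of -0.72 ± 0.45 at day 5 (adjusted p = 0.212) and -0.13 ± 0.45 at 1 month (adjusted p = 0.838).

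Fcer1a (ENSMUSG00000005339, GRCm38 chromosome 1, 173221284 to 173227214), the IgE-binding chain, was higher in E138A ears at each time. At day 5 it lay at 1.19, 3.84, 1.84, 3.02, 2.6 and 2.89 CPM in E138A libraries 1 to 6 and at 0.694, 0.308, 0.665, 0.524, 0.523 and 0.754 CPM in WT libraries 1 to 6. The groups did not overlap, and the log2 fold change was 2.13 ± 0.39 (adjusted p = 0.000141). At 1 month it lay between 3.5 and 10.8 CPM (median 4.62) in E138A ears and between 0.0855 and 1.11 CPM (median 0.584) in WT ears, again without overlap, and the log2 fold change was 3.21 ± 0.38 (adjusted p = 3.7e-07). WT counts were few, 5 to 13 per library at day 5 and 2 to 25 at 1 month, so the size of these fold changes is less exact than for the abundant proteases. The fold changes of the 2 times differed by 1.08 ± 0.55, which was not called (interaction, adjusted p = 0.279).

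Ms4a2 (ENSMUSG00000024680, GRCm38 chromosome 19, 11615523 to 11623719), the beta chain of the same receptor, was not called in either genotype comparison by the test used throughout. It ran from 2.73 to 5.47 CPM (median 4.32) in E138A and from 5.03 to 7.21 CPM (median 5.73) in WT ears at day 5, where 4 of 6 E138A libraries lay below every WT library (log2 fold change -0.48 ± 0.47, adjusted p = 0.455). Fitted with the day 5 libraries alone, whose spread is smaller, it was -0.46 and was called lower (adjusted p = 0.0257), as it was with the GC correlation as a covariate (-0.65, adjusted p = 0.0384). At 1 month Ms4a2 was 2.24, 2.62, 8.96, 9.53, 11.1 and 0.584 CPM in E138A libraries 1 to 6 and 7.51, 0.985, 3.32, 2.18, 5.13 and 4.11 CPM in WT libraries 1 to 6. The 3 lowest libraries of each genotype had a positive GC correlation, and the ranges overlapped, with 3 E138A libraries above and 1 below every WT library (log2 fold change 0.59 ± 0.47, adjusted p = 0.323). Without the 3 libraries above 0.4 the fold change was 0.84 and was called (adjusted p = 0.0365), and limma voom with sample quality weights gave 1.63, also called (adjusted p = 8.15e-05). Within a library, Fcer1a had 0.336 to 0.857 counts for each count of Ms4a2 in E138A and 0.0427 to 0.138 in WT ears at day 5. At 1 month the ratio was 0.415 to 6 in E138A and 0.0208 to 0.375 in WT ears, so the ratios of the 2 genotypes did not overlap at either time. The highest ratios of 1 month, 4.84 and 6 in E138A libraries 1 and 6 and 0.375 in WT library 2, came from the 3 libraries above 0.4. Counts there were as few as 12 for Ms4a2 in E138A ears, and Fcer1a had as few as 2 in WT ears of 1 month. The part of GC content in this ratio was not tested.

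Basophils and dendritic cells can also carry Fcer1a. The 3 basophil markers Mcpt8, Prss34 and Cd200r3 summed to 0.831 to 3.19 CPM in E138A and 0.967 to 2.16 CPM in WT ears at day 5, with Prss34 at 0 in every WT library, and to 1.9 to 4.06 CPM in E138A and 0.246 to 1.17 CPM in WT ears at 1 month. Most of this sum is Cd200r3, with medians of 1.92 CPM in E138A and 1.44 CPM in WT ears at day 5, and 2.21 and 0.901 CPM at 1 month. Mast cells carry Cd200r3 too, so the sum does not separate them from basophils. Mcpt8, the protease that marks mouse basophils, had 54 counts in E138A and 4 in WT libraries at day 5, and 87 in E138A and 6 in WT libraries at 1 month, summed over 6 libraries each. It was too low to be tested. The dendritic cell markers Itgax, Flt3, Zbtb46 and Cd209a summed to 34.7 to 46.1 CPM in E138A and 19.2 to 27.5 CPM in WT ears at day 5, and to 60.3 to 82.7 CPM in E138A and 24.6 to 32.9 CPM in WT ears at 1 month. Of these 4, 2 were called higher at day 5 and 4 at 1 month, and none was at 0 in any group. The part of either cell type in the Fcer1a result was not tested.

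Hdc (ENSMUSG00000027360, GRCm38 chromosome 2, 126593667 to 126619299), the enzyme that makes histamine, had the largest fold change of the members at day 5. It was 6.88, 66.4, 15.8, 47.1, 52.4 and 65.3 CPM in E138A libraries 1 to 6 and 3.83 to 6.59 CPM (median 4.58) in WT libraries. Every E138A library lay above every WT library, though library 1 only just, and the log2 fold change was 3.09 ± 0.46 (adjusted p = 1.22e-05). At 1 month Hdc lay at 20.5 to 63.8 CPM (median 25.4) in E138A and 3.12 to 14.8 CPM (median 8.85) in WT ears, without overlap, with a log2 fold change of 2.02 ± 0.44 (adjusted p = 0.000522). The difference between the times, -1.08 ± 0.61, was not called (interaction, adjusted p = 0.353).

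Like Hdc, neutrophil markers were higher in E138A ears. S100a8, S100a9, Csf3r, Cxcr2, Mmp8, Retnlg and Ly6g summed to 1940, 8740, 2250, 5300, 5710 and 5970 CPM in E138A libraries 1 to 6 of day 5, lowest in the same 2 libraries, 1 and 3, in which Hdc was lowest. In WT libraries they summed to 9.06 to 13 CPM, with Ly6g at 0. S100a8 and S100a9, which make up most of this sum, are also made by inflamed keratinocytes. Csf3r, the receptor for the neutrophil growth factor G-CSF, stood at 9.02, 105, 15.8, 69.4, 74.8 and 95.8 CPM in the same E138A libraries, again lowest in 1 and 3, and at 1.24 to 2.6 CPM in WT libraries. At 1 month the neutrophil sum was 4960, 7120, 4750, 4220, 3770 and 3190 CPM in E138A libraries 1 to 6, and 12.4 to 51.1 CPM in WT ears. Hdc was 63.8, 20.5, 23.4, 22.1, 27.4 and 47.1 CPM in these E138A libraries, so it was lowest in library 2, where the sum was highest. Csf3r was 58.4, 25.7, 32.7, 32.4, 38.6 and 54.5 CPM there, and like Hdc was lowest in library 2 and highest in 1 and 6. Of the 7 markers 6 were tested, and 6 were higher in E138A ears at each time. Without E138A libraries 1 and 3 the day 5 fold change of Hdc was 3.52. The part of neutrophils in the Hdc result was not tested.

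**Figure D3:**
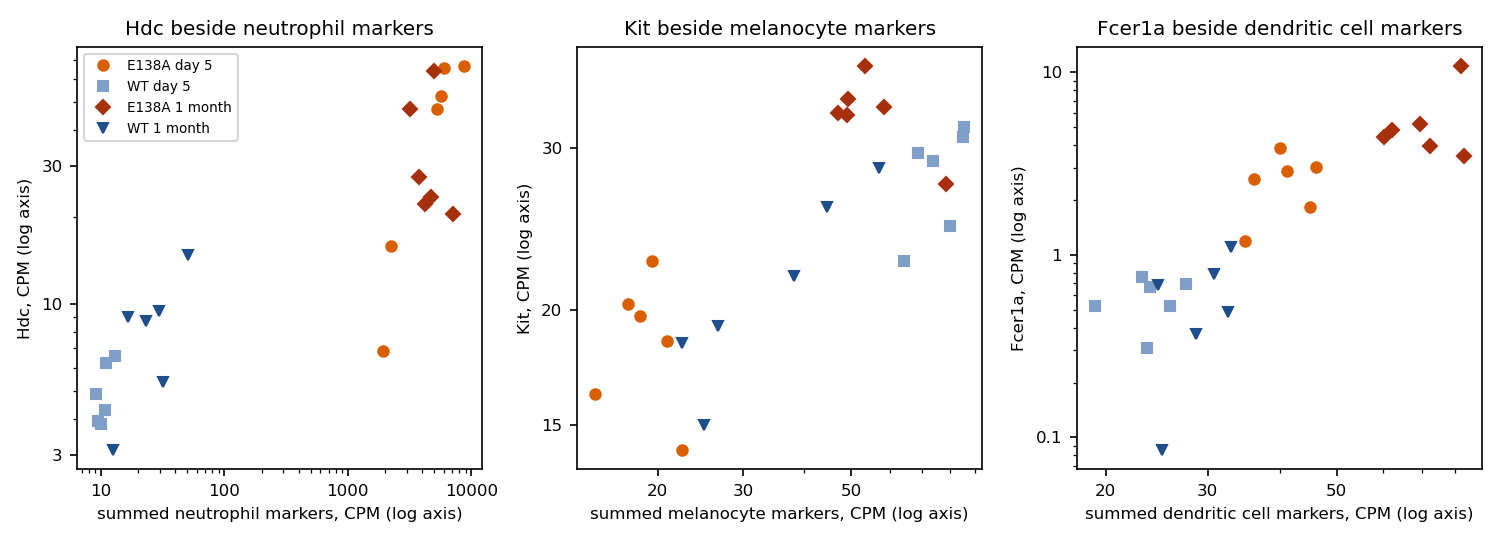
Hdc against the summed neutrophil markers, Kit against the summed melanocyte markers and Fcer1a against the summed dendritic cell markers, all as CPM on log axes, with 1 point per library. E138A libraries 1 and 3 of day 5 hold the lowest Hdc (6.88 and 15.8 CPM) and the lowest neutrophil sums (1940 and 2250 CPM) of that group.

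The tryptase genes Tpsab1 (ENSMUSG00000024173, GRCm38 chromosome 17, 25343245 to 25345562) and Tpsb2 (ENSMUSG00000033825, chromosome 17, 25366305 to 25369098) lie 20.743 kb apart and differed in level and in timing. Tpsb2 encodes the tryptase mMCP-6. Tpsab1 stands for mMCP-7, of which C57BL/6 mice carry a splice variant without functional protein, and RefSeq lists it as a transcribed pseudogene. Their annotated transcripts share no window of 75 bases, the shortest read length, with each other or with other genes. Tpsab1 at day 5 lay at 1.66 to 3.62 CPM (median 3.32) in E138A and 1.17 to 1.92 CPM (median 1.78) in WT ears, and 5 of 6 E138A libraries lay above every WT library. The log2 fold change was 0.80 ± 0.27 (adjusted p = 0.0223), and the call was lost without E138A library 4 (0.71, adjusted p = 0.0596) or without WT library 2 (0.71, adjusted p = 0.0551). At 1 month Tpsab1 lay at 2.98 to 8.38 CPM (median 6.66) in E138A and 0.63 to 1.48 CPM (median 1.13) in WT ears, without overlap, with a log2 fold change of 2.43 ± 0.28 (adjusted p = 1.94e-07). The difference between the times was 1.63 ± 0.39 (interaction, adjusted p = 0.0082).

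Tpsb2 lay at 17.3 to 26.6 CPM (median 22.2) in E138A and 18.9 to 26.3 CPM (median 23.6) in WT ears at day 5, and these ranges all but coincide (log2 fold change -0.08 ± 0.30, adjusted p = 0.865). At 1 month it was 122, 48.2, 30.7, 33.7, 33.4 and 53.8 CPM in E138A libraries 1 to 6 and 15.3, 22.1, 20.1, 15.6, 46.6 and 13.2 CPM in WT libraries 1 to 6. All E138A libraries lay above 5 of the 6 WT libraries, and WT library 5 lay among them. Its log2 fold change was 1.27 ± 0.30 (adjusted p = 0.00131). It was 0.69 without the 3 libraries of high GC correlation (adjusted p = 0.0359). The difference between the times, 1.35 ± 0.43, was at the threshold (interaction, adjusted p = 0.0495) and lost its call in 20 of the 24 fits that left out 1 library each. It was 0.76 and not called without the 3 libraries of high GC correlation (adjusted p = 0.169). Tpsb2 had 6.1 to 10.4 counts for each count of Tpsab1 in E138A and 11.2 to 22.4 in WT ears at day 5, without overlap, and 4.06 to 14.5 in E138A and 10.6 to 34 in WT ears at 1 month, with overlap.

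Mcpt4 (ENSMUSG00000061068, GRCm38 chromosome 14, 56059629 to 56062313) and Cma1 (ENSMUSG00000022225, chromosome 14, 55941451 to 55944675) encode the chymases mMCP-4 and mMCP-5 of connective tissue mast cells and lie in the same cluster, 114.954 kb apart. Mcpt4 at day 5 lay at 35.3 to 63.3 CPM (median 58.8) in E138A and 54.8 to 71.5 CPM (median 64.2) in WT ears, which overlapped (log2 fold change -0.24 ± 0.27, adjusted p = 0.519). Cma1 lay at 18.6 to 40 CPM (median 35.1) in E138A and 25.1 to 33.1 CPM (median 31.6) in WT ears, with 4 E138A libraries above and 2 below every WT library (0.06 ± 0.30, adjusted p = 0.905). E138A libraries 1 and 2 were the lowest of their group for both chymases.

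At 1 month both chymase genes were higher in E138A ears. Mcpt4 was 278, 104, 82, 90.4, 86.5 and 117 CPM in E138A libraries 1 to 6 and 50.3, 66.5, 51.7, 57.4, 125 and 39.9 CPM in WT libraries 1 to 6. All E138A libraries lay above all WT libraries but library 5 (log2 fold change 0.95 ± 0.28, adjusted p = 0.00606). Cma1 showed the same layout, from 43.7 to 148 CPM (median 45.4) in E138A and from 17.2 to 59 CPM (median 24.4) in WT ears, with a log2 fold change of 1.17 ± 0.30 (adjusted p = 0.00261). Without E138A library 1 Mcpt4 was at 0.56 (adjusted p = 0.0338) and Cma1 at 0.74 (adjusted p = 0.0133), and without the 3 libraries of high GC correlation the calls ended (0.46, adjusted p = 0.119, for Mcpt4 and 0.54, adjusted p = 0.0903, for Cma1). Mcpt4 also lost its call when only the 1 month libraries were fitted (0.93, adjusted p = 0.0507). Of the annotated 75-base windows, 2.51% of Mcpt4 are shared with Cma2 and 1.67% of Cma1 with Gm48934.

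Cpa3 (ENSMUSG00000001865, GRCm38 chromosome 3, 20215620 to 20242181) encodes carboxypeptidase A3, which is stored together with mMCP-5. At day 5 it lay at 16.5 to 37.8 CPM (median 29.1) in E138A and 26.4 to 37.9 CPM (median 32.9) in WT ears, which overlapped (log2 fold change -0.25 ± 0.41, adjusted p = 0.665). At 1 month it was 40.5, 21.5, 49.3, 63.1, 65.4 and 10.1 CPM in E138A libraries 1 to 6 and 35.2, 4.89, 18.1, 12.4, 49.2 and 19.4 CPM in WT libraries 1 to 6. Each group spread widely, and the lowest library of each was one of the 3 with a GC correlation above 0.4. The log2 fold change was 0.84 ± 0.41 and was not called (adjusted p = 0.0945). It was called without E138A library 6 (1.02, adjusted p = 0.025), without WT library 5 (1.21, adjusted p = 0.0172), without the 3 libraries above 0.4 (0.88, adjusted p = 0.0316) and with the GC trend removed within each library (0.79, adjusted p = 0.0382). Limma voom with sample quality weights gave 1.81 and called it too (adjusted p = 3.25e-06).

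Mcpt4 and Cpa3 kept a steady proportion across libraries at day 5 and not at 1 month. Mcpt4 had 1.55 to 2.32 counts for each count of Cpa3 in E138A and 1.68 to 2.15 in WT ears at day 5. At 1 month the ratio was 6.86, 4.82, 1.66, 1.43, 1.32 and 11.6 in E138A libraries 1 to 6 and 1.43, 13.6, 2.85, 4.61, 2.54 and 2.06 in WT libraries 1 to 6. The 5 libraries above 4 (E138A 1, 2 and 6, WT 2 and 4) all had a GC correlation of at least 0.211, though WT library 5, at 0.289, had a ratio of 2.54. Mcpt4 over Cma1 stayed within 1.84 to 2.24 in E138A and 1.96 to 2.93 in WT ears at 1 month, close to the 1.53 to 1.93 in E138A and 1.73 to 2.26 in WT ears at day 5. By transcript GC content, Ms4a2 (37.6%) and Cpa3 (41.3%) are the lowest of the members, Mcpt4 (49.1%) and Cma1 (50%) lie alike, and Tpsb2 (56.9%) is the highest. The part of GC content in these ratios was not tested beyond the alternative fits given here.

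**Figure D4:**
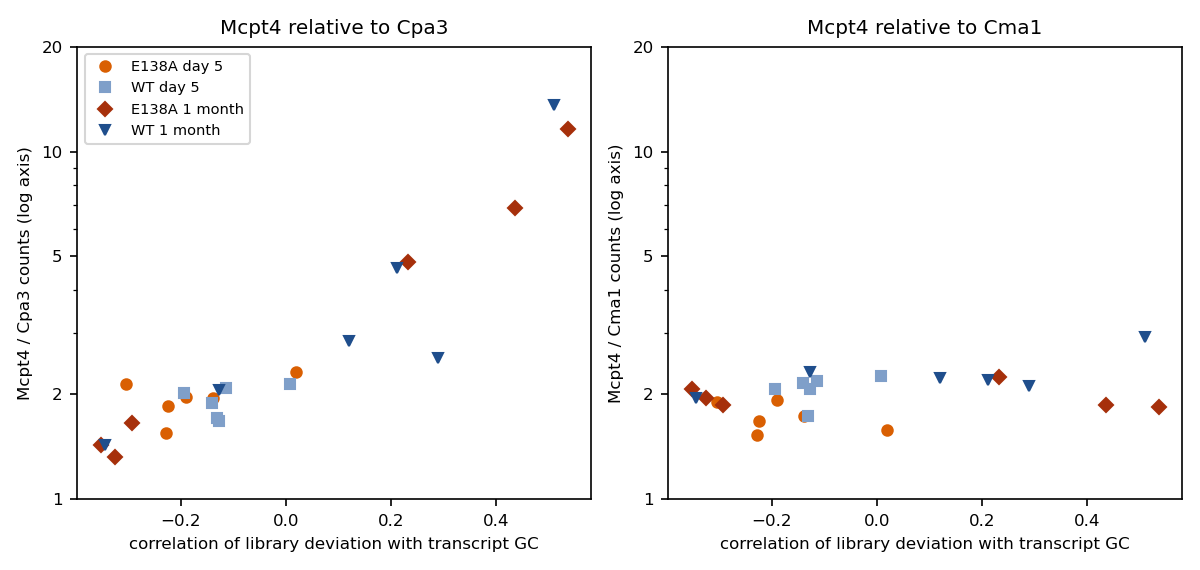
Counts of Mcpt4 over counts of Cpa3 (left) and over counts of Cma1 (right), on log axes, against the GC correlation of each library, with 1 point per library. Mcpt4 over Cpa3 reaches 11.6 and 13.6 in the libraries of highest GC correlation, while Mcpt4 over Cma1 stays between 1.53 and 2.93.

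Over time, 6 of the 9 genes were higher at 1 month than at day 5 in E138A ears, against 11.2% of all genes tested, and 0 were lower, against 8.23% (19.4% in either direction). The 6 were Kit (log2 fold change 0.82 ± 0.14, adjusted p = 0.00014), Mcpt4 (1.23 ± 0.28, adjusted p = 0.00229), Tpsb2 (1.29 ± 0.31, adjusted p = 0.00365), Tpsab1 (1.01 ± 0.26, adjusted p = 0.0073), Cma1 (1.04 ± 0.30, adjusted p = 0.0167) and Fcer1a (1.09 ± 0.34, adjusted p = 0.0276). For Kit, Tpsb2, Cma1 and Mcpt4 every E138A library of 1 month lay above every E138A library of day 5. The call of Fcer1a was lost without the 3 libraries of high GC correlation (0.87, adjusted p = 0.0755), without E138A libraries 1 and 3 of day 5 together (0.85, adjusted p = 0.13), without E138A library 1 of 1 month (0.77, adjusted p = 0.112) and without E138A library 1 (0.94, adjusted p = 0.0648) or 3 (1.03, adjusted p = 0.0536) of day 5. That of Cma1 was lost without E138A library 1 of 1 month (0.61, adjusted p = 0.0876), without the 3 libraries of high GC correlation (0.52, adjusted p = 0.17), without E138A libraries 1 and 3 of day 5 (0.97, adjusted p = 0.0581), with the GC correlation as a covariate (0.70, adjusted p = 0.0507) and with the E138A libraries alone (1.01, adjusted p = 0.0522). Tpsb2 and Mcpt4 stayed called but were smaller, at 0.75 and 0.78 without the 3 libraries and at 0.65 and 0.70 with limma voom and sample quality weights. Voom gave 0.71 for Fcer1a and 0.50 for Cma1, which it called. With the GC covariate Tpsb2 was 0.84. Ms4a2, at 0.47 (adjusted p = 0.52), was called without the 3 libraries (0.96, adjusted p = 0.0357), with the GC trend removed (0.72, adjusted p = 0.0365) and by voom (1.02, adjusted p = 0.00345), and voom also called Cpa3 higher (0.91, adjusted p = 0.00282) and Hdc lower (-0.91, adjusted p = 0.0345).

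In WT ears, 0 of the 9 were called between 1 month and day 5 by edgeR, against 6.28% of all genes tested called higher and 2.81% lower (9.09% in all). By unadjusted p 2 were below 0.05, Kit at -0.39 ± 0.14 (adjusted p = 0.0814) and Tpsab1 at -0.62 ± 0.28 (adjusted p = 0.168), and DESeq2 called 0. By limma voom with sample quality weights 5 were called lower, namely Kit, Ms4a2, Tpsab1, Tpsb2 and Cpa3. Of the 17287 genes tested, voom called 4556 lower and 3671 higher here. Kit passed the edgeR test without WT library 1 (adjusted p = 0.0443) or 5 (adjusted p = 0.0382) of 1 month. The time comparisons share their libraries with the genotype comparisons and are no separate evidence. In the test of the change itself, 3 of 9 were called higher (Kit, Tpsab1 and Tpsb2), against 4.68% of all genes, and 0 lower, against 4.09% (8.77% in either direction). Mcpt4 (1.195 ± 0.39, adjusted p = 0.0561), Cma1 (1.11 ± 0.42, adjusted p = 0.116), Cpa3 (1.09 ± 0.58, adjusted p = 0.304) and Ms4a2 (1.07 ± 0.67, adjusted p = 0.427) had values between 1.07 and 1.195 that were not called. Mcpt4 was called by DESeq2 (adjusted p = 0.035), by voom (0.00117) and with total counts (0.0461). It was also called with the GC covariate (0.00845), with the GC trend removed (0.0416) and in 4 of 24 fits that left out 1 library each. The remaining fits did not call it. Cma1 was called by voom, with the GC covariate and without WT library 5 of 1 month. Only voom called Cpa3 and Ms4a2 higher and Hdc lower (-1.69, adjusted p = 0.0145).

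The other mast cell genes were taken from lists of the pathway by role. Each list count below stands against 20.7% of all genes tested called higher and 20.2% lower at day 5 (40.9% in either direction). At 1 month these shares were 25.5% and 21.5% (47.1%). The lists are short, and a count near these shares is no result about its list. Alternative fits were not read for these genes, so whether their calls hold without the libraries of high GC correlation was not tested. Of 8 further proteases 2 were tested, and both were lower at day 5 and not called at 1 month. Tpsg1, the transmembrane tryptase, was at -0.91 ± 0.21 (adjusted p = 0.00141) and then -0.13 ± 0.20 (adjusted p = 0.649). Ctsg, cathepsin G, was at -1.202 ± 0.42 (adjusted p = 0.0257) and then 0.83 ± 0.40 (adjusted p = 0.0872). The mucosal mast cell proteases were all but absent. Mcpt1 had no count in either genotype at day 5, and Mcpt2 had none in E138A and 1 in WT ears. At 1 month Mcpt2 had 27 counts in E138A libraries (1 to 10 each) and 4 in WT libraries (0 to 2 each), and Mcpt1 had 4 in E138A and none in WT libraries.

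Of the 9 genes of granule storage and mediator synthesis, 4 were higher and 1 lower in E138A ears at day 5, and 5 were higher and 2 lower at 1 month. Srgn, the serglycin core protein that holds granule contents, had log2 fold changes of 2.70 ± 0.32 (adjusted p = 6.67e-07) and 1.97 ± 0.31 (adjusted p = 1.52e-05). Ptgs2, the inducible cyclooxygenase, had 2.32 ± 0.52 (adjusted p = 0.000916) and 2.31 ± 0.52 (adjusted p = 0.000779). Alox5ap, which presents arachidonic acid to 5-lipoxygenase, had 1.61 ± 0.24 (adjusted p = 1.3e-05) and 1.25 ± 0.24 (adjusted p = 0.000137). Alox5, that lipoxygenase, had 0.59 ± 0.14 (adjusted p = 0.00128) and 0.21 ± 0.14 (adjusted p = 0.215). The first value of each gene is day 5 and the second 1 month. Serglycin and the leukotriene genes are made by neutrophils and macrophages too. Srgn in E138A ears of day 5 was lowest in libraries 1 and 3 (20.5 and 30.4 CPM, against 80.1 to 118 CPM in the other 4). The part of any cell type in the results of this list was not tested.

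Of the 12 genes of IgE receptor signalling, 8 were higher and 1 lower in E138A ears at day 5 (median log2 fold change 0.95), and 9 were higher and 0 lower at 1 month (median 1.09). Syk, the kinase that binds the gamma chain, had 1.68 ± 0.19 at day 5 (adjusted p = 3.82e-07) and 0.98 ± 0.19 at 1 month (adjusted p = 0.000133). Lyn, the kinase that phosphorylates the receptor, had 1.66 ± 0.19 at day 5 (adjusted p = 5.05e-07) and 1.46 ± 0.19 at 1 month (adjusted p = 1.34e-06). Lcp2, the adaptor SLP-76, had 1.96 ± 0.24 at day 5 (adjusted p = 1.08e-06) and 1.55 ± 0.24 at 1 month (adjusted p = 9.57e-06). Btk, a kinase further down, had 1.39 ± 0.18 at day 5 (adjusted p = 1.81e-06) and 1.27 ± 0.18 at 1 month (adjusted p = 2.59e-06). Most of these genes are also used by other myeloid cells, and the cells behind the difference were not tested.

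Of the 6 other receptors, 1 was higher and 2 were lower in E138A ears at day 5, and 3 were higher and 0 lower at 1 month. Il1rl1, the receptor for interleukin 33, lay at 6.29 to 16.3 CPM in E138A and 5.36 to 7.52 CPM in WT ears at day 5 (log2 fold change 0.94 ± 0.20, adjusted p = 0.000698). At 1 month it lay at 14.5 to 24.8 CPM in E138A and 4.49 to 8.99 CPM in WT ears, without overlap (1.62 ± 0.20, adjusted p = 6.9e-07). Enpp3, known as CD203c, an activation marker of human mast cells and basophils, was lower at day 5 (-1.04 ± 0.17, adjusted p = 4.57e-05) and higher at 1 month (0.43 ± 0.17, adjusted p = 0.037). Cd200r3, an activating receptor of mast cells and basophils, had 0.23 ± 0.35 at day 5 (adjusted p = 0.642) and 1.36 ± 0.35 at 1 month (adjusted p = 0.00247). Mrgprb2, the receptor for cationic drugs and peptides on connective tissue mast cells, was lower at day 5 (-1.41 ± 0.41, adjusted p = 0.00819), with 1.02 to 2.81 CPM in E138A and 3.66 to 5.51 CPM in WT ears, which did not overlap. At 1 month its fold change was -0.73 ± 0.39 (adjusted p = 0.135), with 0.341 to 5.19 CPM in E138A and 2.5 to 7.51 CPM in WT ears.

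**Figure D5:**
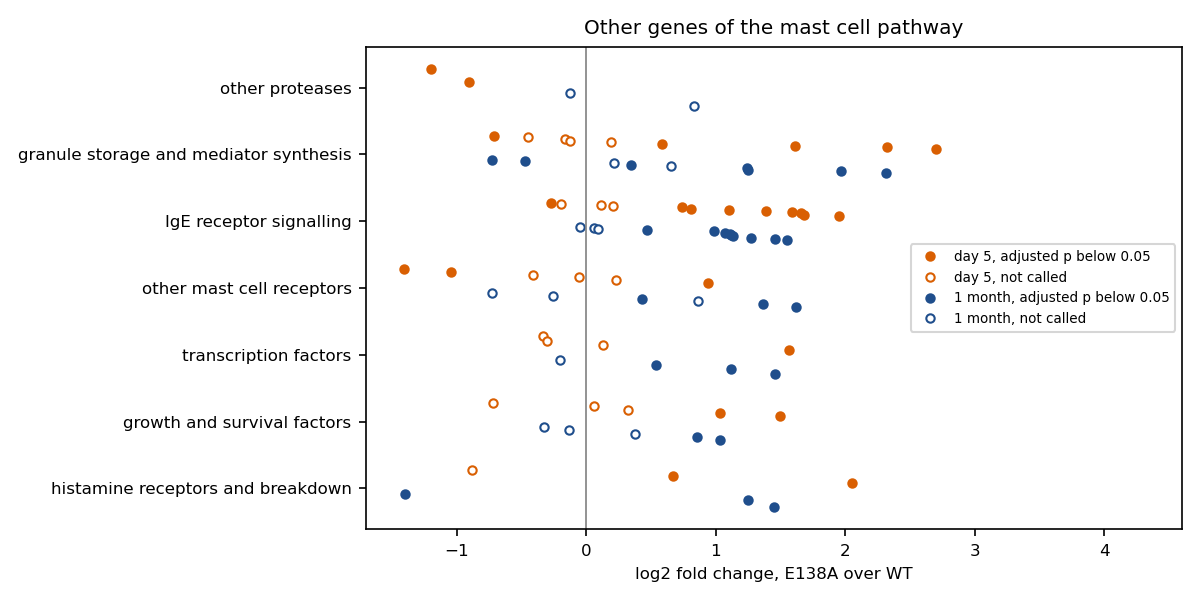
Log2 fold change of E138A over WT ears for the tested genes of 7 lists of the mast cell pathway, at day 5 and at 1 month. Filled points passed the edgeR test at an adjusted p below 0.05. IgE receptor signalling genes lie mostly above 0 at each time (medians 0.95 and 1.09), and the other receptors have medians of -0.23 at day 5 and 0.65 at 1 month.

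Of 4 transcription factors of the lineage, 1 was higher at day 5 and 3 at 1 month in E138A ears. Spi1, the myeloid factor PU.1, was the 1 called at day 5 (1.57 ± 0.27, adjusted p = 6.76e-05) and had 1.46 ± 0.27 at 1 month (adjusted p = 9.28e-05). Gata2 was at -0.33 ± 0.17 at day 5 (adjusted p = 0.118) and 0.54 ± 0.17 at 1 month (adjusted p = 0.00966). Gata1 was at 0.13 ± 0.44 at day 5 (adjusted p = 0.847) and 1.12 ± 0.42 at 1 month (adjusted p = 0.0325). Of 8 growth and survival factors 5 were tested and 2 were higher at each time. Of these, Tgfb1 had 1.03 ± 0.20 at each time (adjusted p = 0.000284 at day 5 and 0.000193 at 1 month). Of 6 genes that receive or break down histamine 3 were tested. The receptors Hrh2 (2.05 ± 0.29, adjusted p = 4.98e-06, at day 5 and 1.45 ± 0.29, adjusted p = 0.00018, at 1 month) and Hrh1 (0.67 ± 0.24, adjusted p = 0.026, and 1.25 ± 0.23, adjusted p = 8.1e-05) were higher. Hnmt, the enzyme that methylates histamine, had -0.88 ± 0.41 at day 5 (adjusted p = 0.0875) and was lower at 1 month (-1.40 ± 0.41, adjusted p = 0.00705).

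The genes most like the members were sought among 15278 others, by Pearson correlation with the mean of the 9 standardised profiles over the 24 libraries. After the group means were subtracted, the 8 closest were Cyp11a1 (r = 0.871), Il1rl1 (0.842), Serpinb1a (0.81), Rgl1 (0.797), Tph1 (0.778), Ccl9 (0.775), Clec10a (0.773) and Ccl24 (0.753). With the group means kept, the 8 closest were Tph1 (r = 0.903), Cyp11a1 (0.899), Il1rl1 (0.878), Gpr183 (0.875), Elk3 (0.873), Ptpro (0.865), Ly86 (0.863) and Specc1 (0.858). Spearman's rho within groups was 0.811 for Cyp11a1, 0.895 for Il1rl1 and 0.722 for Tph1. For the others it was 0.821 (Serpinb1a), 0.666 (Rgl1), 0.63 (Ccl24), 0.597 (Ccl9) and 0.512 (Clec10a). Cyp11a1 makes pregnenolone from cholesterol, and Tph1 makes the precursor of serotonin, which rodent mast cells store. Without the 2 libraries farthest out (E138A library 1 and WT library 5 of 1 month) r within groups was 0.824 for Cyp11a1, 0.896 for Il1rl1 and 0.681 for Tph1. It was then 0.722 for Rgl1, 0.658 for Serpinb1a, 0.62 for Clec10a, 0.614 for Ccl24 and 0.61 for Ccl9. These values describe the 24 libraries, whose points share depth and the GC trend.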

How the data were processed

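The authors deposited expected counts per Ensembl gene, made with RSEM per the file headers, and their totals differ between libraries as unscaled counts do. The submitters' processing notes name RSEM 1.3.0, STAR 2.5.2, DESeq2 1.14.1 and the build GRCm38. The annotation release they counted on is not stated there. Values were rounded to whole counts for the tests, and 6.71% had a fraction. Symbols, gene coordinates, exon lengths and transcript GC were taken from GENCODE M21, which held 51719 of the 51912 identifiers.

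Counts were analysed with edgeR 4.0.16 in R 4.3.3. The filter was filterByExpr by group and the scaling TMM. A robust quasi-likelihood model took in the 24 libraries, with a coefficient for each of the 4 groups. The 5 contrasts were tested two-sided. Standard errors were taken as the fold change on the log2 scale over the square root of F. Named genes were the 9 members, up to 4 genes of each pathway list with the smallest adjusted p among those called, and 8 per measure of likeness, with a mean of at least 1 CPM (log2 CPM used a prior count of 2). Kitl was added after its values were seen, as the ligand of Kit. The members and lists were chosen with earlier results of these data known. A gene that this rule names in the list of growth and survival factors is not reported here.

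Alternatives used DESeq2 1.42.0, limma 3.58.1 voom with quality weights, RLE factors, total counts, other filters, a fit of the compared libraries alone, a non-robust fit, a minimum log2 fold change of 1, a replicate block, and each library left out. Added after the data were seen were 4 more, namely without the libraries of GC correlation above 0.4, that correlation as a covariate, the GC trend removed within each library (loess), and without E138A libraries 1 and 3 of day 5. No library pair within a group was a repeat (smallest chi-square per degree of freedom 4.86). Pairs across groups were not compared. The edgeR path was tested on simulated counts with known changes, for the genotype comparison of day 5 only. It called 18 of 66 genes changed 1.5 times, 41 of 66 changed 2 times and 57 of 65 changed 4 times. Of 16883 unchanged genes it called 3. The simulated counts held no GC trend, and neither the other comparisons nor the alternative fits were tested in this way.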

Additional observations from a re-analysis of the deposited data

Results flagged for a closer look

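Within groups, 7 of the 36 combinations of member and group held a value far from the rest by Dixon's criterion, applied to CPM. For 1 combination alone chance gives about 1 in 20 if the values are normally distributed. Whether CPM values are was not tested, and the combinations are not independent. All 7 lay in E138A library 1 or WT library 5 of 1 month, and Tpsb2, Cma1 and Mcpt4 vary together (r = 0.937 to 0.976 at 1 month). The 7 are thus not separate events and cannot be set against that rate. In E138A library 1 of 1 month these were Fcer1a at 10.8 CPM, Tpsb2 at 122 CPM, Cma1 at 148 CPM and Mcpt4 at 278 CPM, each the highest of its group. In WT library 5 of 1 month they were Tpsb2 at 46.6 CPM, Cma1 at 59 CPM and Mcpt4 at 125 CPM, each the highest of its group. Cpa3 stood at 40.5 CPM in that E138A library, below 3 others of its group, and at 49.2 CPM in that WT library, the highest of its group. The GC correlations of these libraries were 0.437 and 0.289, and their part in the values was not tested.

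The genotype difference of 3 members changed between the times by the interaction test. The log2 fold change of E138A over WT rose from day 5 to 1 month by 1.21 for Kit, by 1.63 for Tpsab1 and by 1.35 for Tpsb2 (edgeR adjusted p = 0.000266, 0.0082 and 0.0495). For Kit it turned from -0.60 to 0.61, a change of sign and not of size. In the 24 fits that left out 1 library each, the calls of Kit (adjusted p from 8.33e-05 to 0.000747) and Tpsab1 (from 0.00321 to 0.0175) held in 24 of 24, and that of Tpsb2 held in 4 of 24 (values from 0.93 to 1.71).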

How the results depend on the processing

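Under the planned and added alternatives the number of members called was 2 to 5 at day 5 (4 as reported), 5 to 9 at 1 month (7 as reported), 2 to 8 for the change between times (3 as reported), 4 to 9 for E138A over time (6 as reported) and 0 to 5 for WT over time (0 as reported). The counts that moved by over 1.5 times were 2 at day 5 with a minimum log2 fold change of 1, 8 and 5 for the change between times with voom and with the GC covariate, and 5 and 1 for WT over time with voom and with the GC trend removed. The added fit without E138A libraries 1 and 3 of day 5 called 4 at day 5, 2 for the change and 4 for E138A over time. Leaving out 1 library gave 3 to 4, 7 to 8, 2 to 5, 4 to 6 and 0 to 1, in the same order, with 5 for the change without WT library 5 of 1 month. The cause of these shifts was not tested.

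With the replicate block the counts, in that order, were 4, 7, 2, 5 and 0. Deviations of samples with the same number correlated from -0.211 to 0.069 between genotypes at day 5 and from -0.794 to 0.294 at 1 month. Between the times they correlated from -0.115 to 0.45 in E138A ears and from -0.096 to 0.105 in WT ears. Samples with different numbers were not compared in this way, so these values cannot decide whether the numbers pair the samples. The calls lost under the block were Tpsb2 in the change between times (1.32, adjusted p = 0.102) and Fcer1a over time in E138A ears (0.97, adjusted p = 0.0896).

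Signs turned only where the value as first fitted lay near 0 and was not called. Tpsb2 at day 5 was 0.008 with the GC covariate, and Cma1 at day 5 lay between -0.02 and 0.172 with 1 library left out. For WT over time, Fcer1a was -0.294 with voom, -0.063 with the block and -0.114 with the GC covariate, and -0.27 to 0.241 with 1 library left out. There Mcpt4 was -0.197 with voom, -0.283 with the GC covariate and -0.254 to 0.147 with 1 library left out. Cma1 was 0.041 without the libraries of high GC correlation and -0.411 to 0.037 with 1 left out, and Tpsb2 was -0.426 to 0.046.

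Over all genes, voom called 11699 at day 5, 8217 for the change and 5886 and 8227 over time in E138A and WT ears, where edgeR called 7068, 1516, 3360 and 1572. For the change the GC covariate gave 2919. For WT over time DESeq2 gave 2458, the GC trend removed 2603, the block 1019 and leaving out 1 library 937 to 3026, and for E138A over time the libraries compared alone gave 2109. A minimum log2 fold change of 1 left 2631, 3573, 1479 and 670 at day 5, at 1 month and over time in E138A and WT ears, against 8139 called at 1 month without it. Of the WT time calls 1086 were higher and 486 lower, against 1518 and 346 with total counts, 1457 and 374 with RLE factors, 1077 and 1162 with the GC covariate and 1466 and 1137 with the GC trend removed. Depth limits Fcer1a most, with 58 and 79 counts over the WT groups of day 5 and 1 month.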

Other observations

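Eosinophil markers (Siglecf, Ccr3, Epx, Prg2 and Il5ra) summed to 0.475 to 2.14 CPM in E138A and 0.242 to 0.81 CPM in WT ears at day 5, and to 0.885 to 2.48 CPM in E138A and 0.246 to 1.64 CPM in WT ears at 1 month. Only 2 of the 5 were tested, and 2 were higher at each time. Over the 12 libraries of a time, the correlations of log2 CPM between the 36 pairs of members, after the group means were subtracted, had a median of 0.583 at day 5 (from -0.086 to 0.924) and 0.408 at 1 month (from -0.444 to 0.976). At 1 month Cpa3 lay with Ms4a2 (r = 0.901) and apart from Mcpt4 (0.058) and Tpsb2 (0.001), while Tpsb2 lay with Mcpt4 (0.976). At day 5 Cpa3 lay with Mcpt4 (0.841) and Cma1 (0.883). These pairs share libraries, depth and the GC trend, and are given as a description. Cma2, which shares 2.51% of the read windows of Mcpt4, had 2 to 8 counts per library in E138A and 1 to 6 in WT ears at day 5, and 2 to 10 in E138A and 1 to 7 in WT ears at 1 month.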
